A study of Mus musculus with 4 samples.

Results

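The 10 genes described here, Krt6a, Krt6b, Krt16, Krtdap, Sprr1a, Sprr1b, Dmkn, Calml3, Calm4 and Lce3f, are keratinization genes among the 32285 genes counted in mouse mammary organoids. They were chosen by their names and by their measured levels across the lineages, libraries and antibody tags of these same data, so every level and difference given for them is a description and was not tested. Organoids were grown in Matrigel from mammary epithelial cells of adult virgin female mice, either wild type (WT) or carrying 1 truncated germline allele of the DNA repair gene Brca2 (Brca2mut/WT). They were left untreated (control) or exposed to HU, hydroxyurea, which slows DNA replication. Droplet single-cell RNA sequencing gave 4 libraries, WT control, WT HU, Brca2mut/WT control and Brca2mut/WT HU. Each condition was 1 library, so a difference between conditions cannot be told apart from a difference between libraries. Brca2 itself was counted at 5.34, 5.50, 4.27 and 3.92 CPM (a gene's counted RNA molecules, scaled to the same total) in that order, and counts per gene do not separate its alleles.

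Stratified squamous epithelia such as the epidermis build a tough outer layer by keratinization. Cells leaving the basal layer switch keratins, load small proline-rich and late envelope proteins under the plasma membrane and cross-link them into a cornified envelope. The mammary gland is instead a bilayer of contractile basal cells and secretory or hormone-sensing luminal cells, and it does not normally keratinize. Keratins 6 and 16 are also known as keratins of wounded and hyperproliferative epidermis.

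The libraries held 7639 to 9358 cells and 243430259 to 302135155 gene counts, each count being 1 unique molecular identifier (UMI), a tag for 1 captured RNA molecule. The study's limits, 1000 to 6000 detected genes and under 5% mitochondrial UMIs, kept 17360 of 33268 cells, with a median of 24180 to 26893 UMIs per library. Kept cells were sorted into basal (Krt14 at 500 CPM or more, 2217 cells), HR+ luminal (hormone receptor positive, Areg at 300 CPM or more, 525 cells) and HR- luminal (both under 300 CPM, 14008 cells). The remaining 610 cells were set aside, 109 of them high for both genes. The classes were checked against marker lists. Of 8 basal markers, 6 were at least 2-fold above HR- luminal cells in all 4 libraries. The same held for 5 of 6 HR- markers above basal cells and 6 of 6 HR+ markers above HR- luminal cells. Krt14 and Areg are among the passing basal and HR+ markers, and since they defined the classes, their passing was fixed in advance. The 4 fibroblast markers summed to 708 to 1803 CPM in HR+ luminal cells against 6.29 to 12.5 in basal cells, and all but at most 1.03 CPM of that was Dcn. Pairs of libraries shared 16 to 30 cell barcodes. Cells had been labelled with 4 antibody tags whose key is not given in the sources used here, so tags were read as unlabelled pools. The titles state 2 replicates per library, and the study sampled early and late passages without saying which cells came from which.

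In basal cells 9 of the 10 genes stood at least 2-fold above HR- luminal cells in all 4 libraries, where 8.34% of the 10747 genes compared did so. Against HR+ luminal cells 6 of the 10 were at least 2-fold higher in all 4 libraries, beside 5.34% of genes. These are class sums expressed as CPM, with 1 CPM added before taking log2 ratios. Intervals are exact 95% Poisson intervals for sums and Clopper-Pearson intervals for shares of cells, and cover counting error only. Every one of the 10 genes passed the minimum of 5 CPM in the comparison with HR- luminal cells.

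Keratins came first in the order of roles. Krt6a, a type II keratin of stress-responsive epithelium, was at 1301 CPM in WT control basal cells, 535 in WT HU, 846 in Brca2mut/WT control and 500.1 in Brca2mut/WT HU. In HR- luminal cells it lay between 5.80 and 12.6 CPM, so basal cells were higher by 5.43 to 6.96 on the log2 scale. HR+ luminal cells lay between those classes for Krt6a, at 158, 267, 300 and 325 CPM in the same order of libraries. Krt6b, its near-identical neighbour, stood at 136, 71.5, 289 and 42.4 CPM in basal cells and at no more than 1.78 CPM in HR- and 2.93 CPM in HR+ luminal cells. Krt16, the type I partner of the keratins 6, stood at 318, 196, 310 and 234 CPM in basal cells. Its level in HR+ luminal cells was 3.98 to 22.3 CPM and in HR- luminal cells 1.13 to 5.67 CPM. Of the 3 classes, basal cells were thus the highest for all 3 keratins in every library. Krt6a alone of the keratins also stood at 158 CPM or more in HR+ luminal cells. The set-aside cells belong to no class, and in WT HU they stood above basal cells, at 888 CPM of Krt6a and 617 of Krt16. In WT control, Brca2mut/WT control and Brca2mut/WT HU they were below basal cells, at 170, 533 and 257 CPM of Krt6a. Krt16 there was at 34.5, 239 and 14.6 CPM.

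Krt6a and Krt6b lie side by side on chromosome 15 (GRCm38, 101689910 to 101694307 and 101676023 to 101680287, both on the minus strand). Their longest coding transcripts, of 2278 and 2235 bases and 9 exons each, align with 93.0% of the shorter one identical and share an unbroken run of 280 bases. Over the last 300 bases 72.0% was identical and the longest shared run was 22 bases. How the counting treated reads that fit both genes is not known, so the level of each carries an unknown error.

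The small proline-rich proteins Sprr1a and Sprr1b are cross-linked precursors of the cornified envelope. Both genes lie on chromosome 3, at 92483952 to 92485895 and 92436809 to 92438789 on the minus strand, with 2 exons in the transcript used. Their lineage patterns went apart, so the 250 bases before the start of each are shown, followed by those of Krtdap and Dmkn, from RefSeq on GRCm38.p6. Capitals mark TGANTCA, the letters read by the AP-1 factors, and TATAAA, the TATA box, each searched on both strands; TGANTCA reads the same on either, so a site counts once. The first of the 3 Dmkn promoters is shown.
Sprr1a (chr3:92485882-92486131, minus strand): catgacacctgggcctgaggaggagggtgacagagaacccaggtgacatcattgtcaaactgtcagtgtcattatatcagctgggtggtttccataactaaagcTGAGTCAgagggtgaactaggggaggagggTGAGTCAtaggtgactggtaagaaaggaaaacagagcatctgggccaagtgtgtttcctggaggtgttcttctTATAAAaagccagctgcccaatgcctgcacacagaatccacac
Sprr1b (chr3:92438780-92439029, minus strand): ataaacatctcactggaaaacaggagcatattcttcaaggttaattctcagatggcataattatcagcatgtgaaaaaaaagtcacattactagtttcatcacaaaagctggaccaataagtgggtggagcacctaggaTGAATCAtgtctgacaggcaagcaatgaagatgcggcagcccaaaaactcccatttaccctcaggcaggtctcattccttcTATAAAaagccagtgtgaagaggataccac
Krtdap (chr7:30787655-30787904, plus strand): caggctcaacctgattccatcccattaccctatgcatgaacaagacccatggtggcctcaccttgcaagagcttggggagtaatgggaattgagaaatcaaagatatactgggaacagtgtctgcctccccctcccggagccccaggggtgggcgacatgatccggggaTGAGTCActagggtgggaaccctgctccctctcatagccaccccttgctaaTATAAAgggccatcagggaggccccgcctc
Dmkn (chr7:30763506-30763755, plus strand): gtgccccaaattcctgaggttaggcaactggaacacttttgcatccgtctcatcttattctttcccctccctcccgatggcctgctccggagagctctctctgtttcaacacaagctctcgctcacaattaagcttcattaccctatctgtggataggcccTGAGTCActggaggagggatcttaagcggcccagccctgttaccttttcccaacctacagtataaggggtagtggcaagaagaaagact

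Sprr1a holds TGAGTCA at 146 to 140 and again at 116 to 110 bases before its start, and Sprr1b holds TGAATCA at 111 to 105 bases. Krtdap and all 3 promoters listed for Dmkn hold TGAGTCA, within 91 to 75 bases of the start. Of the 6 members with a promoter in the table, Sprr1a, Sprr1b, Krtdap, Dmkn, Calm4 and Lce3f, 4 hold TGANTCA and 3 hold TATAAA (Sprr1a, Sprr1b and Krtdap). Counted by promoter, 6 of their 8 hold TGANTCA and 3 of the 8 hold TATAAA, with Dmkn giving 3 of the 8. Among all 32851 promoters of the same length, 6.75% hold TGANTCA and 12.4% hold TATAAA. Distances run from RefSeq starts, which can differ from the ends of the gene positions given, taken from GENCODE M21. The Sprr1a and Sprr1b windows align with 64.4% identity. A match of letters is a description of the sequence and shows no binding.

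Sprr1a was the exception to the basal pattern. In basal cells it was at 730, 81.9, 233 and 72.4 CPM (WT control, WT HU, Brca2mut/WT control, Brca2mut/WT HU), whereas HR+ luminal cells held 2097, 1260, 3378 and 836 CPM. HR+ luminal cells were thus the highest class in each of the 4 libraries, above basal cells by 1.52 to 3.93 and above HR- luminal cells by 6.68 to 8.46 on the log2 scale. Sprr1b went the other way, at 139, 22.9, 158 and 13.8 CPM in basal cells and no more than 1.06 CPM in HR+ and 1.05 CPM in HR- luminal cells. Being at least 2-fold above HR- luminal cells in all 4 HR+ libraries was met by 3 members, Sprr1a, Krt6a and Krt16, of the 6 that passed the minimum, beside 10.2% of genes. With no upper gene limit and mitochondrial UMIs under 10%, Krt16 was no longer among them, at 0.72 in WT control.

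Many HR+ luminal cells held Sprr1a, but few held most of its UMIs. With each cell thinned to 5000 UMIs, 55.5% of WT control HR+ luminal cells held a Sprr1a UMI (95% interval 47.0 to 63.7%). The shares were 48.9% in WT HU, 64.4% in Brca2mut/WT control and 44.4% in Brca2mut/WT HU. In HR- luminal cells, a class of similar depth, the thinned shares were 3.94, 1.92, 2.00 and 1.53%. There 9, 5, 5 and 3 cells held 50% of the Sprr1a UMIs of the class. The part of free RNA, released from other cells, in any class was not tested. Thinning left out 6 to 22 HR+ and 122 to 288 HR- luminal cells per library, and the unthinned shares in HR+ luminal cells were 66.0, 63.1, 64.6 and 47.3%. The median HR+ luminal cell held 289, 114, 466 and 0 CPM of Sprr1a, and 15, 9, 12 and 4 cells accounted for 50% of its UMIs.

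The ratio of Sprr1a to Krt6a UMIs differed between classes of the same library. It was 13.2, 4.72, 11.3 and 2.57 in HR+ luminal cells, 1.42, 0.68, 1.48 and 0.90 in HR- luminal cells, and 0.56, 0.15, 0.28 and 0.14 in basal cells. The classes thus kept the same order in all 4 libraries, and no single ratio held across them. Krt6a was likewise detected widely among HR+ luminal cells, in 34.9, 45.9, 51.0 and 44.4% of thinned cells, against 2.24 to 5.41% of HR- luminal cells.

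Lce3f, a late cornified envelope gene at chromosome 3, 92992226 to 92993426, gave 51.3 CPM in WT control basal cells, 8.49 CPM in Brca2mut/WT control and no UMI in the basal cells of either HU library. Over all lineages, 1 kept HR- luminal cell of Brca2mut/WT HU held 1 UMI. The 800 Lce3f UMIs of the WT control basal class came from 1 cell. In Brca2mut/WT control 2 basal cells held 57 UMIs, 49 of them in the higher one. Taken as 3 counts, the limit that a count of 0 allows was 0.157 CPM in WT HU and 0.421 CPM in Brca2mut/WT HU. Lce3f is therefore a gene of single cells here, and its class level says little about other basal cells.

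Krtdap and Dmkn encode secreted proteins of differentiating keratinocytes and are neighbours on chromosome 7, at 30787896 to 30791097 and 30763756 to 30781063. Krtdap stood at 124, 179, 245 and 216 CPM in basal cells and at no more than 6.02 CPM in HR- and 5.85 CPM in HR+ luminal cells. Dmkn stood at 395, 272, 310 and 202 CPM in basal cells and at no more than 4.32 CPM in HR- and 22.9 CPM in HR+ luminal cells. Dmkn was the more widespread of the pair among cells: 42.7, 37.1, 28.7 and 19.8% of thinned basal cells held a Dmkn UMI, and 6.59, 10.4, 8.11 and 7.29% a Krtdap UMI. In HR- luminal cells those shares did not exceed 1.80% and 1.92%. Median depths were 20026 to 22130 UMIs in basal and 24718 to 27596 in HR- luminal cells.

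Calml3 and Calm4 are calmodulin-like calcium-binding proteins of stratified epithelium, both single-exon genes on chromosome 13 (3802896 to 3804316 and 3837757 to 3838673). Calml3 was at 98.1, 117, 105 and 53.8 CPM in basal cells, and Calm4 at 25.1, 36.5, 35.8 and 2.53 CPM. Neither exceeded 1.68 CPM in HR- luminal cells or 6.12 CPM in HR+ luminal cells. Calml3 was found in 18.2, 29.1, 17.9 and 10.8% of thinned basal cells, and Calm4 in 0.69 to 2.81%. Calm4 missed the 2-fold mark against HR+ luminal cells in 1 library, Brca2mut/WT HU, where it was at 2.53 against 0.77 CPM.

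**Figure D1:**
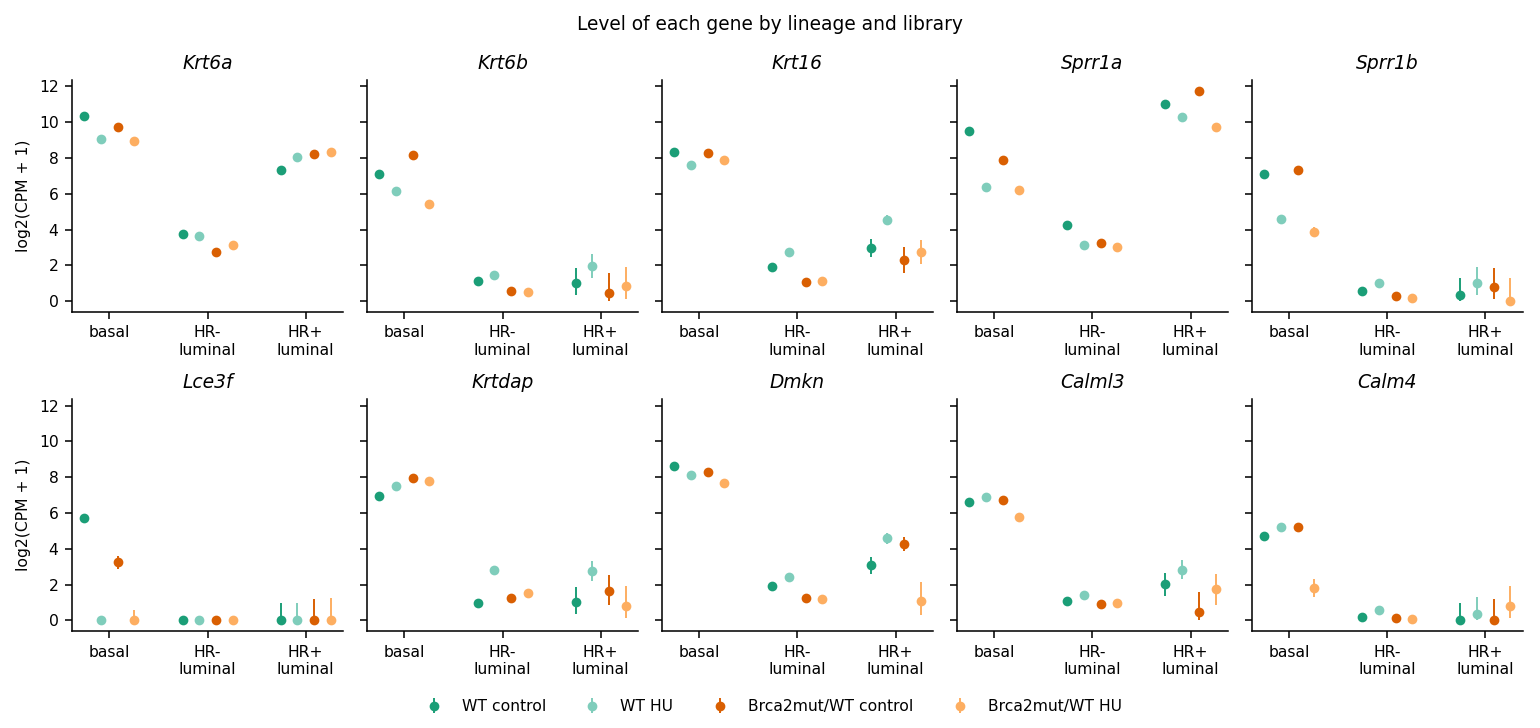
Level of each of the 10 genes, as log2(CPM + 1), in basal, HR- luminal and HR+ luminal cells of the 4 libraries, with 95% counting intervals as bars (1 library per condition). Of the classes shown, basal cells are the highest in every library for all genes but Sprr1a and Lce3f. Sprr1a peaks in HR+ luminal cells at 836 to 3378 CPM, and Lce3f is at 0 in basal cells of both HU libraries.

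Few cells carried most of the UMIs. Over all kept cells, the 1% with most member UMIs (33 to 54 cells per library) held 58.7% of them in WT control, 53.0% in WT HU, 69.9% in Brca2mut/WT control and 69.8% in Brca2mut/WT HU. Taken gene by gene, the top 1% held 85.9 to 98.5% of Krt6b UMIs. Calm4 was found in 44, 83, 17 and 10 cells, fewer than the top 1% in all libraries but WT HU, where the top 1% held 95.2% of it. Dmkn and Calml3 were spread wider, with 46.0 to 82.3% and 41.5 to 82.4% in the top 1%. These top cells were basal in 45 of 54, 33 of 47, 18 of 42 and 19 of 33 cases, and HR+ luminal in 8, 7, 20 and 6.

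Single cells held a large share of the basal class in 3 of the 4 libraries. The highest basal cell of WT control held 8299 member UMIs, or 16.04% of its class and 15.6% of the 53114 UMIs in the cell. It carried 2 antibody tags and held 5223 Sprr1a, 878 Sprr1b and 800 Lce3f UMIs. The highest basal cell of Brca2mut/WT control, which had no tag call, held 4477 member UMIs, or 26.3% of its class, with 1242 Krt6b, 1047 Krt6a and 643 Sprr1b UMIs. In WT HU and Brca2mut/WT HU the highest cell held 5.77% and 16.5% of its class.

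The same cells recurred among several members. For Krt6a and Dmkn, 39.4 to 70.4% of the top 1% of cells were shared, depending on the library, and for Krtdap and Dmkn 48.5 to 61.7%. Krt16 and Sprr1b shared 42.9 to 61.7% in the 3 libraries where both were found in enough cells. Sprr1a stood apart again, sharing 3.03 to 16.7% with Krtdap and 4.76 to 20.4% with Calml3.

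**Figure D2:**
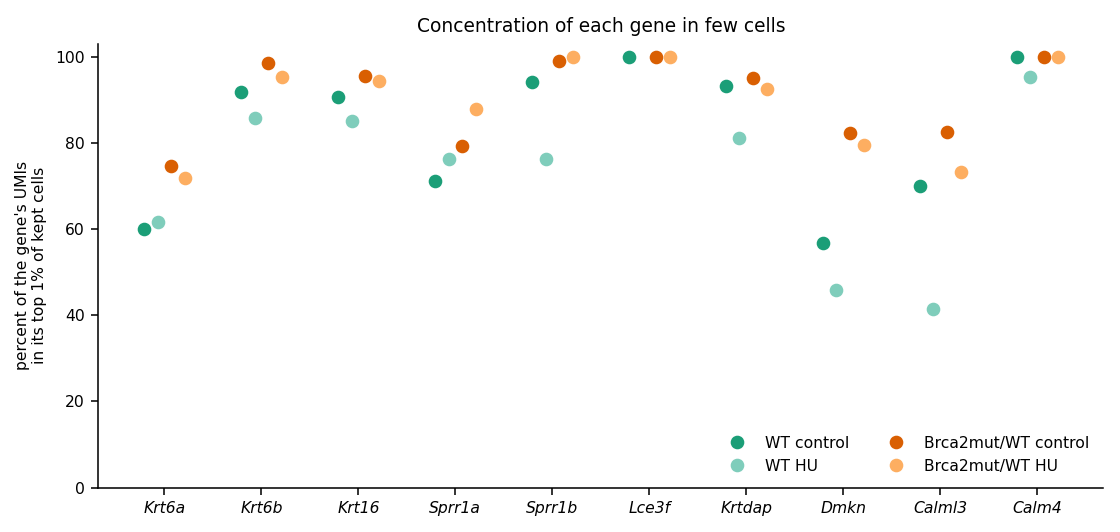
Percent of each gene's UMIs held by the 1% of kept cells with most of them (y axis, 33 to 54 cells), for each library as 1 point. Krt6a starts at 60.0% and Dmkn and Calml3 reach down to 46.0% and 41.5%, while Calm4 and Lce3f lie at 100% wherever fewer cells than the top 1% hold a UMI.

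The top cells of the basal class differed from other basal cells in genes that did not choose them. They are 45, 33, 18 and 19 cells (WT control, WT HU, Brca2mut/WT control, Brca2mut/WT HU) against 664, 835, 302 and 301 others. Acta2, smooth muscle actin of the contractile apparatus, was at 5.33, 3.47, 75.5 and 1.57 CPM in the top cells and at 366, 658, 992 and 917 CPM in the others. Cnn1, another contractile protein, had no UMI in the top cells of any library, which allows, at 3 counts, up to 1.78 to 5.39 CPM, against 12.2 to 46.5 CPM in the others. Id4, a transcriptional inhibitor of basal cells, was lower by 2.39 to 3.23 on the log2 scale. The oxytocin receptor gene Oxtr had 0, 1, 0 and 0 UMIs in the top cells, against 10.4 to 23.3 CPM in the others. The contractile genes, Oxtr and Id4 were thus low in the cells with most keratinization UMIs, in each library. Of the other listed basal markers Trp63 was also lower, by less, whereas Krt5 was not, nor was Krt14, which defined the class.

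The keratins and Lgals7 ran the other way. Krt14, which also defined the class, was at 23442 to 34000 CPM in the top cells and 5697 to 8925 CPM in the others, and Krt5 was higher by 0.23 to 1.27 on the log2 scale. Krt17 was higher by 0.51 to 1.57 and Lgals7, a galectin of stratified epithelium, by 0.72 to 1.74. Neither of them is in the marker lists. Trp63, the regulator of basal epithelial identity, differed by -1.02 to -0.08. Among the 5 suprabasal epidermis markers, Krt1 stood at 17.8, 145, 71.9 and 6.30 CPM in the top cells against 0.31 to 1.37 CPM in the others, on 30, 125, 40 and 4 UMIs. Krt10, its partner keratin, stood at 48.0, 537, 460.1 and 91.3 CPM against 13.4 to 24.7 CPM. Ivl, the envelope precursor involucrin, was at 3.47 to 23.4 CPM in the top cells, on 3 to 13 UMIs, against 0.32 to 2.62 CPM in the others. Flg, filaggrin, was at 49.8 against 1.44 CPM in WT control and had no UMI in the top cells of WT HU. It was at 5.39 against 0.16 CPM in Brca2mut/WT control and 11.02 against 0 in Brca2mut/WT HU, on few UMIs. The whole basal class stood at 0.60 and 0.98 CPM of Flg in these Brca2mut/WT libraries, where 3 counts make 0.447 and 0.421 CPM. Lor, loricrin, was at 17.97 against 0.97 CPM in Brca2mut/WT control, on 10 UMIs, and had 1 to 3 UMIs in the top cells of the other libraries.

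Proliferation genes were mostly lower in the top cells. Mki67 was at 2.96, 6.94 and 3.15 CPM in WT control, WT HU and Brca2mut/WT HU, against 32.4, 55.2 and 32.7 CPM in other basal cells, but at 41.3 against 31.8 CPM in Brca2mut/WT control. The top cells over all lineages had a median of 28335 to 36604 UMIs against 19526 to 21724 in other basal cells, so they were deeper. Of them, 14, 14, 8 and 9 had no single tag, whereas 14.4 to 16.4% of all kept cells had none. The part of depth and of cells with mixed tags in these values was not tested.

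**Figure D3:**
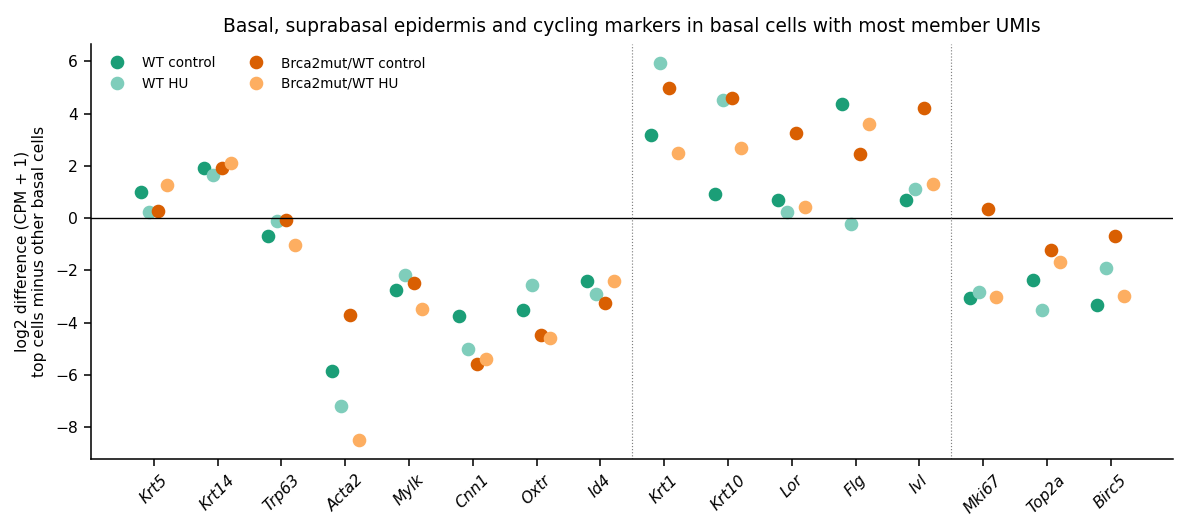
Log2 difference (CPM + 1) between the basal cells among the top 1% for member UMIs and all other basal cells, for basal markers (left), suprabasal epidermis markers (middle) and cycling markers (right), with 1 point per library. Acta2, Mylk, Cnn1, Oxtr, Id4 and Trp63 lie below 0 in all 4 libraries, Krt14, Krt1 and Krt10 above 0, and Krt5 between 0.23 and 1.27.

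The tag pools within a library differed widely. Pools of at least 20 basal cells (14 in all) were compared within each library. The highest stood at least 4-fold above the lowest in all 4 libraries for 3 of the 9 members that passed the minimum. These were Krt16, Sprr1a and Calm4, beside 0.268% of genes. The minimum of 5 CPM had to be met in 1 or more pools, not in each library. Calm4 ranged from 0 to 3.797 CPM in Brca2mut/WT control, under that minimum. In Brca2mut/WT HU it ranged from 0 to 11.3 CPM, where the whole basal class held 18 Calm4 UMIs in 3 cells. The Calm4 call thus rests on few UMIs in the Brca2mut/WT libraries. Krt16 ranged over the pools from 10.7 to 790 CPM in WT control, 102 to 461 in WT HU, 21.1 to 545 in Brca2mut/WT control and 52.9 to 372 in Brca2mut/WT HU. Krt6a ranged from 197 to 2381 CPM in WT control, from 392 to 787 in WT HU, from 365 to 816 in Brca2mut/WT control and from 281 to 827 in Brca2mut/WT HU. Between libraries the whole basal class ran from 500.1 to 1301 CPM for Krt6a, so its pools in WT control spanned more than the libraries did. Basal cells without a single tag reached 2037 CPM of Sprr1a in WT control and 2552 CPM of Krt6a in Brca2mut/WT control. The WT control pool highest for Krt16 held 43 basal cells. No pool value is given without the highest cells. Which tags belong to which replicate is not given in the sources used here.

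**Figure D4:**
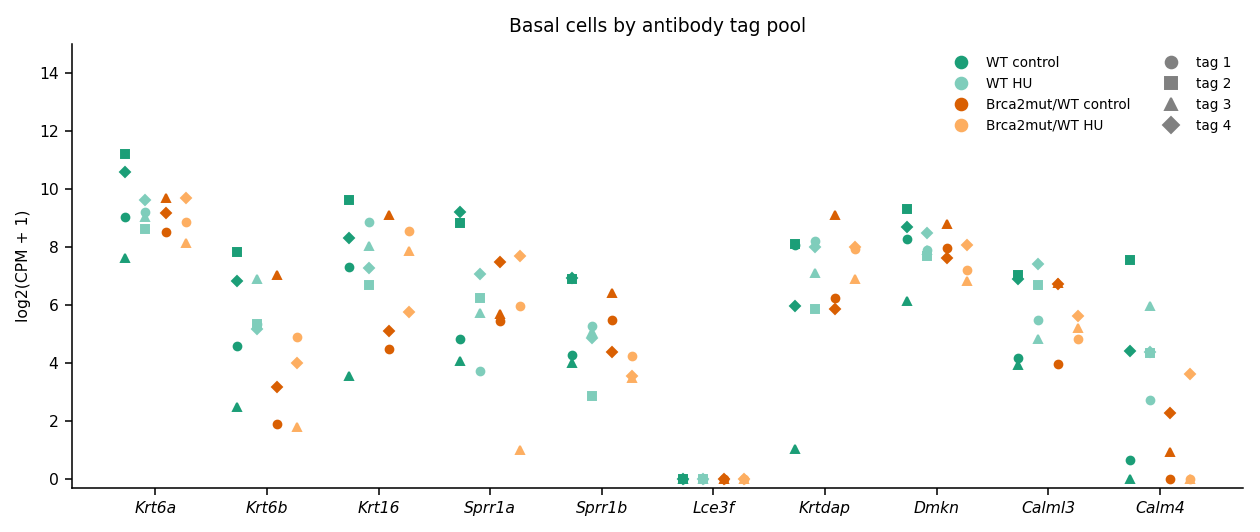
Level of each gene, as log2(CPM + 1), in basal cells of each antibody tag pool with at least 20 cells; colour gives the library and the symbol the tag, whose key is unknown. Krt16 in WT control spans 10.7 to 790 CPM between pools, and Lce3f is at 0 in every pool.

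Cells above the upper limit of 6000 genes made up 24.3 to 31.1% of barcodes and held 50.1% of member UMIs in WT control, 71.8% in WT HU, 55.4% in Brca2mut/WT control and 73.7% in Brca2mut/WT HU. Their share of all UMIs was 53.4, 51.0, 54.8 and 64.4%, so the members' share was above that of all genes in the HU libraries and close to it in the controls. With a wider filter, no upper gene limit and mitochondrial UMIs under 10%, the summed level of the 10 genes in basal cells was 2237, 2238, 2052 and 1572 CPM, against 3318, 1513, 2541 and 1338 CPM within the limits. With the gene limit lifted alone the sums were 2266, 2265, 2089 and 1596 CPM, and with the mitochondrial limit raised alone 3263, 1499.9, 2487 and 1312 CPM. The order of the libraries thus depended on the gene limit: WT control was the highest within it, and WT control and WT HU were level without it. Cells above 6000 genes carried 2 tags in 15.1, 12.2, 8.08 and 5.72% of cases, against 6.23, 3.64, 3.43 and 5.68% of kept cells. Among basal cells with 1 tag, those above 6000 genes still held 1835, 3343, 1844 and 2212 CPM of the 10 genes.

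In basal cells the design pairs HU with control in each genotype and Brca2mut/WT with WT under each treatment. With HU in WT, 0 members were 2-fold higher, beside 0.848% of genes, and 4 were 2-fold lower, beside 1.21%. Those 4 were Krt6a, Sprr1a, Sprr1b and Lce3f, the last of them on 1 control cell. Sprr1a differed by -3.14 (counting interval -3.23 to -3.08) and by -2.41 when each library's basal cell with most Sprr1a UMIs was left out. Krt6a differed by -1.28 and by -1.32 without its own highest cell, and its thinned share of cells was 43.8% in control and 25.2% with HU. The groups are single libraries, and percentages of genes are given as the background only, since the members were chosen on these values.

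With HU in Brca2mut/WT, 0 members were 2-fold higher, beside 0.348% of genes, and 5 were 2-fold lower, beside 0.844%: Krt6b, Sprr1a, Sprr1b, Calm4 and Lce3f. Sprr1b differed by -3.43, Calm4 by -3.38, Krt6b by -2.74 and Sprr1a by -1.67. Without the cell highest for that gene in each library these were -2.42, -1.51, -2.74 and -1.35, and Lce3f no longer passed the minimum. All 10 were below 0, with a median of -1.31 against 0.03 over all genes that passed the minimum. In WT, 7 of 10 were below 0, with a median of -0.81 against 0.02. Both medians are the same with Lce3f set to the limit that a count of 0 allows, since it stays in the lower part of the list. The HU and control libraries are distinct in the 2 genotypes, so these are separate comparisons.

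With the wider filter some HU differences were smaller, some turned and some were larger. In WT, 1 member was then 2-fold higher (Krtdap, beside 0.565% of genes) and 2 were lower (Sprr1a and Lce3f, beside 0.684%), and the median was 0.31. Sprr1b in WT went from -2.55 to 0.59, Krt16 from -0.69 to 0.85 and Krt6b from -0.92 to 0.28, while Krtdap went from 0.53 to 1.70 and Calm4 from 0.52 to 0.93. With the gene limit lifted alone these 5 values were 0.58, 0.84, 0.27, 1.68 and 0.93. In Brca2mut/WT, 0 members were higher, beside 0.208%, and 3 of 9 were lower, beside 0.366%: Sprr1a at -1.63, Sprr1b at -1.73 and Calm4 at -3.51. Krt6b there went from -2.74 to -0.95. Sprr1a was below -1 in both genotypes under both filters, but at -0.54 in WT and -0.25 in Brca2mut/WT with the wider filter and cells with 1 tag only. In WT control 45.9% of its basal UMIs were in 1 cell with 2 tags.

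Between genotypes without HU, 1 member was 2-fold higher in Brca2mut/WT (Krt6b, 1.08, beside 0.679% of genes) and 2 were lower (Sprr1a at -1.64 and Lce3f at -2.46, beside 0.519%), Lce3f resting on 1 WT and 2 Brca2mut/WT cells. Without its highest cell in each library Krt6b differed by -0.18, so the higher level rested on 1 cell. With HU, 0 were higher, beside 1.08%, and 2 of 9 were lower, Calml3 at -1.11 and Calm4 at -3.41, beside 1.13%. With the wider filter, 1 was higher (Krtdap at 1.17, beside 0.378%) and 2 lower (Sprr1a at -1.46 and Lce3f at -2.27, beside 0.258%) in untreated cells. With HU there were then 0 higher, beside 0.516%, and 4 lower, beside 0.506%: Sprr1a, Sprr1b, Calml3 and Calm4. Krt6a, Krt16 and Dmkn stayed within 2-fold between genotypes under both filters.

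**Figure D5:**
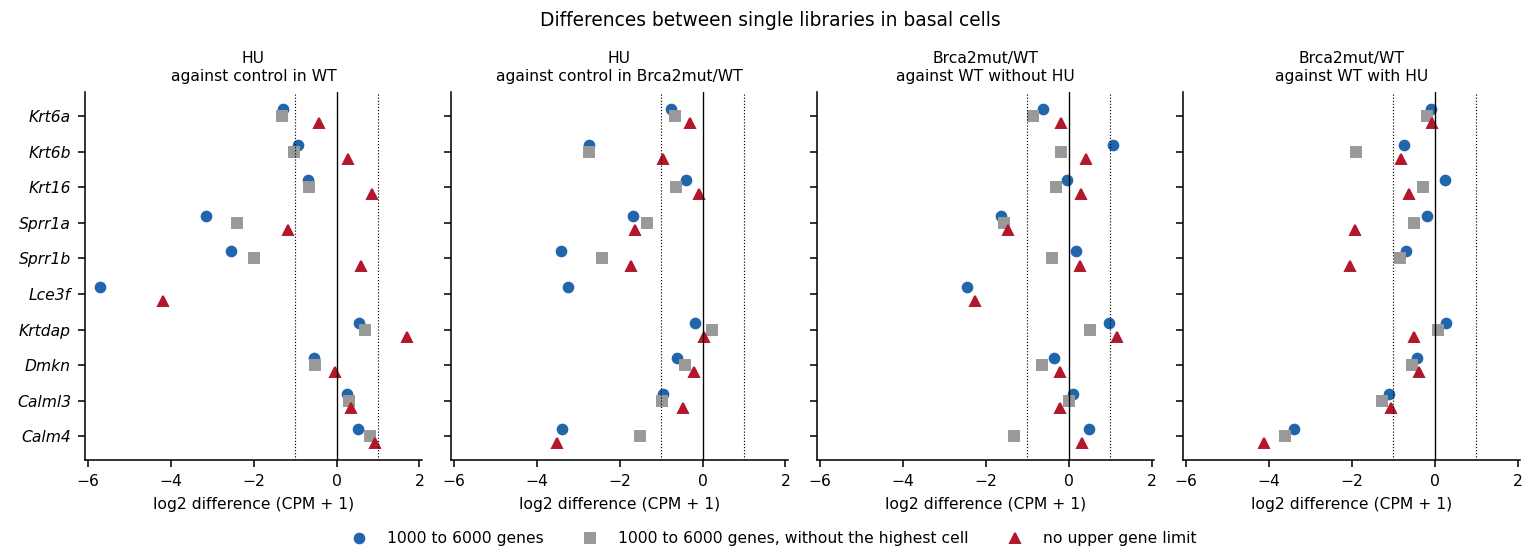
Log2 difference (CPM + 1) between single libraries in basal cells for each gene that passed 5 CPM, with cells of 1000 to 6000 genes (circles), the same without the highest cell of each gene (squares) and the wider filter with no upper gene limit and mitochondrial UMIs under 10% (triangles); dotted lines mark 2-fold. Sprr1b with HU in WT moves from -2.55 to 0.59 with the wider filter, and Krt6b between untreated genotypes from 1.08 to -0.18 without its highest cell.

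In HR+ luminal cells Sprr1a was lower with HU by 0.73 in WT and by 2.01 in Brca2mut/WT on the log2 scale, and its thinned shares were 55.5 against 48.9% and 64.4 against 44.4%. Krt6a differed by 0.75 and 0.12 there. Other members were low in this class but some were higher with HU in WT. Krt16 was at 22.3 against 6.92 CPM (1.56) and Dmkn at 22.9 against 7.44 (1.501). Krtdap was at 5.85 against 1.03 CPM (1.76), on 22 against 4 UMIs. The share of all genes that were 2-fold higher was not computed for this class. In Brca2mut/WT Dmkn was at 1.16 against 18.1 CPM (-3.15), but at 4.59 against 5.43 CPM with the wider filter. Krtdap in Brca2mut/WT was at 0.77 against 2.17 CPM, under the minimum. Under the wider filter Krtdap was higher with HU in both genotypes, at 6.72 against 0.63 CPM in WT and 8.98 against 1.02 in Brca2mut/WT. With the wider filter Sprr1a stood at 1148, 661, 1766 and 506 CPM in HR+ luminal cells, and the difference with HU was -0.80 in WT and -1.80 in Brca2mut/WT. The sums rest on 112 to 159 cells per library.

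Other genes of keratinization followed the basal pattern in part. Of 112 listed genes outside the 10, 111 were in the annotation and 68 passed 5 CPM in the comparison of basal with HR- luminal cells. Of those 68, 39 (57.4%) were at least 2-fold higher in basal cells in all 4 libraries, beside 8.34% of genes, and 0 were lower. The 39 include Krt14, which defined the basal class. By group, these were 4 of 6 keratins of stratified epithelium, 5 of 13 cornified envelope precursors, 2 of 3 transglutaminases and cornification enzymes, 7 of 9 desmosome genes, 7 of 11 kallikreins, serpins and cystatins, 9 of 13 S100, annexin and Ly6 genes, and 5 of 13 regulators. In HR+ against HR- luminal cells, 30 of 54 were higher, beside 10.2% of genes, and 4 lower. In the same order of groups the higher genes were 4 of 8, 6 of 7, 2 of 2, 3 of 7, 1 of 4, 10 of 13 and 4 of 13. The share of all genes that were lower was not computed in either comparison.

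The genes of each group with most UMIs in basal cells are given by value, a choice that favours genes high in basal cells. Among keratins, Krt5 stood at 2861, 2397, 1822 and 2168 CPM in basal cells, with no more than 34.1 CPM in HR- luminal cells (Krt14 defined the class). Sbsn, a secreted envelope-associated protein, stood at 151, 99.9, 98.9 and 71.2 CPM, and Ppl, the plakin periplakin, at 42.5, 40.9, 35.0 and 31.6 CPM. Asprv1, a protease that processes filaggrin, stood at 22.5 to 35.8 CPM and Elovl4, an enzyme of very long chain fatty acids, at 3.87 to 14.4 CPM. All 5 were at least 2-fold above HR- luminal cells in each library. The listed envelope precursor Sprr2a3, not picked by that rule, stood higher in HR+ luminal cells, at 567, 1357, 721 and 597 CPM. In basal cells it was at 7.30 to 21.8 CPM.

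Junction genes gave steadier values. Perp, a desmosome-associated membrane protein, stood at 833, 760.4, 720.2 and 684 CPM in basal cells and 182 to 277 CPM in HR+ luminal cells, and Dsp, desmoplakin, at 415, 404, 370.1 and 381 CPM in basal cells. Serpinb5, the serpin maspin, stood at 249 to 258 CPM, while Cstb, a cystatin, stayed under 2-fold in at least 1 library, with differences of 0.87 to 1.25. Fabp5, a fatty acid binding protein of keratinocytes, stood at 5344, 4097, 4105 and 3344 CPM in basal cells. Ly6d, a surface protein of stratified epithelium, was at 4907, 4224, 3018 and 1989 CPM in basal cells and also at 2243 to 3196 CPM in HR+ luminal cells, against 85.0 to 155 in HR- luminal cells. The regulators Cebpb and Hes1 were not higher in basal than in HR- luminal cells, with differences of -0.78 to -0.38 and -0.69 to 0.14.

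By condition in basal cells, 3 of 64 listed genes were 2-fold higher and 14 lower with HU in WT, beside the 0.848% and 1.21% of all genes, and 1 of 64 higher and 13 lower with HU in Brca2mut/WT, beside 0.348% and 0.844%. Cornified envelope precursors made up 4 of the 14 and 7 of the 13. Those 7 include Lce3a, Lce3b, Lce3c, Lce3d, Lce3e and Cnfn, at 5.36 to 27.6 CPM in Brca2mut/WT control and 0 with HU. These passed the minimum only through the control sum, which fixed the lower call in advance. Lce3a, Lce3b and Lce3d gave 36, 64 and 43 basal UMIs over all libraries. The number of cells holding them was not counted. No value for the list is given with the wider filter or without the highest cells. Desmosome genes, regulators, and transglutaminases and cornification enzymes gave 0 in either direction in both. Between genotypes without HU, 8 of 68 were higher and 13 lower in Brca2mut/WT, beside 0.679% and 0.519%. The 8 include Lce3a, Lce3b, Lce3d and Lce3e, which passed the minimum only through the same Brca2mut/WT control sum, so their higher call was also fixed in advance. Between genotypes with HU, 1 of 56 was higher and 7 lower, beside 1.08% and 1.13%. The median over the list was -0.28 and -0.12 for HU in WT and in Brca2mut/WT.

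Genes most like the members were picked by correlation with their mean profile over 34 sums of lineage, library and tag pool of at least 20 cells (14 basal, 16 HR- and 4 HR+ luminal). Sums of 1 library share depth and free RNA, and the lineage difference dominates the measure. The 10 genes were Csta1 (r = 0.96), Perp (0.95), Dsg3 (0.95), Dsc3 (0.95), Klk8 (0.95), Ppp1r14c (0.95), Aqp3 (0.95), Zbtb7c (0.94), Net1 (0.94) and Casq2 (0.93). Csta1, a cystatin A of the cornified envelope, stood at 114, 18.2, 36.8 and 17.4 CPM in basal cells and at no more than 2.66 CPM in both luminal classes. Dsg3 and Dsc3, desmosomal cadherins of basal epidermis, stood at 69.5 to 129 and 17.9 to 25.7 CPM in basal cells.

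Members tracked one another unequally on the same sums. Against the mean of the other 9, r over all 34 sums was 0.95 for Dmkn, 0.93 for Krt16, 0.92 for Calml3, 0.91 for Krt6b and Sprr1b, 0.90 for Krt6a, 0.87 for Krtdap and 0.71 for Calm4. It was 0.35 for Sprr1a, and Lce3f was at 0 in every basal pool. Over the 14 basal sums alone it was 0.93 for Krt6a, 0.88 for Dmkn and 0.86 for Krt6b, and 0.50 to 0.68 for Krt16, Krtdap, Sprr1a, Sprr1b, Calml3 and Calm4.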

How the data were processed

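Droplet single-cell libraries (10x Chromium, version 3 kit) of WT and Brca2mut/WT mammary organoids, with or without HU, were used as the authors deposited them: UMI counts per gene and cell, whole numbers without normalization, for 32285 genes and 4 antibody tags. The submitters' processing notes name Cell Ranger 6.0.2, Seurat 4.0, R 4.1.3 and the build mm10, while the matrix headers name Cell Ranger 6.1.1. The study states 34200 cells as those left after its quality control. The files hold 33268 barcodes, of which 17360 passed the limits the study gives. The cells described here are thus not the set the study analysed. Whether the cells of a library came from passage 0, passage 4 or both is not given in the sources used here.

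Counts were summed by lineage and library and divided by the gene total of that class (CPM). A gene was called at 2-fold or more with a pseudocount of 1 CPM, among genes with at least 5 CPM in 1 or more of the sums compared. With 1 library per condition no test was made. A tag was assigned from 50 tag UMIs with at least 80% on 1 tag, and a second tag at 20% or more marked 2 tags. No doublet caller was run. Cells with fewer than 5000 UMIs were left out of thinned shares. The calling script was run on simulated counts to check its arithmetic, which says nothing of differences between single libraries. Counting intervals of differences are for the ratio without the pseudocount.

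The members and gene lists were chosen with earlier results of these data known. Named genes were all members, Brca2, the cell type markers, the 2 genes of each listed group with most basal UMIs, and the 10 genes most correlated with the members. Krt17, Lgals7, Sprr2a3, Cnfn and the Lce3 genes other than Lce3f were named outside these rules. Positions and transcripts are from GENCODE M21 (GRCm38, the same build as mm10), and promoters from RefSeq. Alternatives covered the cell filter, tags, TMM scaling (edgeR 4.0.16), pseudocount, minimum level and lineage limits. Python 3.11.15, numpy 2.4.6, scipy 1.17.1, pandas 2.3.3 and Biopython 1.88 were used.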

Additional observations from a re-analysis of the deposited data

Results flagged for a closer look

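In basal cells 3 members stood on opposite sides of 0 for HU against control in the 2 genotypes, with counting intervals clear of 0 in each; the difference between genotypes was not tested, since each condition is 1 library. Krtdap differed by 0.53 on the log2 scale in WT and by -0.18 in Brca2mut/WT. Without the cell highest for Krtdap in each library the values were 0.69 and 0.23, and with no upper gene limit and mitochondrial UMIs under 10% (the wider filter) 1.70 and 0.03, on the same side of 0 in both cases. Calml3, the calmodulin-like protein, differed by 0.25 and -0.95, and by 0.35 and -0.48 with the wider filter. Calm4 differed by 0.52 and -3.38, and by 0.93 and -3.51 with the wider filter. In Brca2mut/WT control 83.8% of its basal UMIs came from 1 cell, and without the cell highest for Calm4 the values were 0.80 and -1.51. With the wider filter and cells with 1 tag only, Calm4 was at -0.53 and -2.32, on the same side of 0 in both genotypes. Calml3 was then at 0.19 and -0.63.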

How the results depend on the processing

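The number of members at least 2-fold higher in basal than HR- luminal cells in all 4 libraries was 8 to 9 under every alternative run, and against HR+ luminal cells it was 6 to 7. Of 140 counts of members recomputed, 116 stayed within 1.5 times of the reported one, whereas 38 of 44 sums in basal cells and 70 of 88 in luminal cells moved by more than counting error. In HR+ luminal cells the sum was 2275, 1589, 3703 and 1172 CPM as reported and 1315, 872, 2041 and 803 CPM with the wider filter (no upper gene limit and mitochondrial UMIs under 10%). For HU in WT, members 2-fold higher numbered 1 with the wider filter, 1 with stricter lineage limits, 2 without the cells of tag 2, and 2 with the wider filter and 1 tag only (an alternative chosen after seeing the data), against 0 reported; members lower numbered 2 with the wider filter and 0 with 1 tag as well, against 4. For HU in Brca2mut/WT, members lower numbered 3 with the wider filter, 3 among cells with 1 tag and 1 under both together, against 5, and members higher 1 without tag 3. Between untreated genotypes, members higher numbered 3 with stricter lineage limits, 2 without tag 1, 3 without tag 2, 2 without tag 4 and 0 without the cell highest for each member (also chosen after seeing the data), against 1. With HU, members lower numbered 4 with the wider filter, 4 with 1 tag as well, 1 with stricter limits and 1 without tag 1, and 1 was higher with stricter limits. With the gene limit lifted alone (chosen after seeing the data), all 4 counts given for the wider filter were the same, 1, 2, 3 and 4; with the mitochondrial limit raised alone (also chosen later) no count moved. The cause of the other changes was not tested. Leaving out the highest cells moved Krt6b from 1.08 to -0.18 between untreated genotypes and from -0.74 to -1.89 between genotypes with HU. For HU in Brca2mut/WT Krt6b was at -2.74 with and without them, but at -0.95 with the wider filter and 0.09 with 1 tag as well.

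The summed level of the 10 genes in basal cells, in the order WT control, WT HU, Brca2mut/WT control and Brca2mut/WT HU, was 2237, 2238, 2052 and 1572 CPM with the wider filter and 2195, 2498, 1752 and 1805 CPM with 1 tag as well. With the gene limit lifted alone it was 2266, 2265, 2089 and 1596 CPM, and with the mitochondrial limit raised alone 3263 CPM in WT control and 2487 CPM in Brca2mut/WT control. It was 2740, 1377, 1682 and 1208 CPM among cells with 1 tag, 3286, 1485, 2468 and 1285 CPM after TMM scaling, and 3450, 1302, 2693 and 1509 CPM with stricter lineage limits. Without the cells of tag 1 it was 3574, 1488 and 2877 CPM in the first 3, without tag 2 it was 3153, 1787 and 1383 CPM (Brca2mut/WT control unchanged within counting error), without tag 3 it was 3747, 2449 and 1558 CPM (all but WT HU) and without tag 4 it was 1432, 3425 and 1235 CPM (all but WT control). No paired analysis was possible because each condition is 1 library.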
